A study of Mus musculus with 9 samples.

Results

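Genes of muscle stem cells and muscle formation (n = 9) were measured in quadriceps femoris, a thigh muscle, of 9 female mice. They are the transcription factors Myf5, Myod1, Myog and Myf6, the satellite cell genes Pax7, Cdh15, Megf10 and Sdc4, and the fusion gene Mymk. The rule was a list of symbols: every probe set that the platform annotation gives to 1 of these 9 genes was taken, which found 12 probe sets among the 18193 genes named on the array. Of the 12, 10 passed a filter on low values (a log2 value above 5 in at least 3 arrays), and each of the 9 genes kept at least 1.

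All 9 mice were of a C57Bl/6 HT transgenic strain in which a self MHC class I protein is made in skeletal muscle once the drug doxycycline is withdrawn. Early mice (n = 3) came off doxycycline at 21 days of age and were killed at 35 days. Late mice (n = 3) came off it at 35 days and were killed at 50 days. Control mice (n = 3) stayed on doxycycline and were killed at 35 days. By the treatment protocol the controls carried 1 transgene only, though their strain is labelled like that of the other groups, so a genotype difference of the controls cannot be told apart from induction. Age and induction cannot be told apart in late against control, since the late mice were killed at the greater age. The muscle of 1 animal was put on 1 array, and the promoter that drives the transgene is not named in the sources used here.

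Satellite cells are the stem cells of skeletal muscle. They lie beside the fibre in a resting state marked by Pax7, and on activation they pass through Myf5 and Myod1 to Myog, which commits them to differentiate before they fuse with one another or with a fibre. Growing young muscle still adds nuclei from these cells, and adult muscle does so mainly after injury. In a piece of whole muscle, fewer cells of a type and less RNA per cell cannot be told apart.

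As a check of induction, H2-K1, a class I gene, lay between 14.63 and 14.69 on the log2 scale in early, between 13.11 and 14.31 in late and between 10.21 and 10.88 in control arrays. The groups were also apart from the controls for 2 of its 3 other probe sets, while the remaining one overlapped (11.55 to 12.57 in early, 11.35 to 12.29 in late and 10.87 to 11.65 in control arrays). The 9 fibre markers averaged 15.13 to 15.30 in early, 15.32 to 15.44 in late and 15.23 to 15.35 in control arrays, and 0 of the 3 cardiac markers passed the filter. Of the 9697 genes tested, 1.19% were called in early against control, 0.206% in late against control and 11.5% in early against late, a call being an adjusted p under 0.05 in limma. Array early 3 stood apart from early 1 and early 2: without it 1756 genes were called in early against control, in place of 115. For the 9 members, results on early muscle that moved without it are given both ways. Counts for the gene lists, and values of list genes not called, are given with all 9 arrays only.

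Of the 9 genes, Mymk, which passed the filter through the controls and 1 early array, fell in both induced groups. Myog fell in late muscle. Myog was higher in early than in late muscle; Mymk was called higher too, but its late values and 2 of its early values lay under the filter's floor of 5, and with values below 5 set to 5 the difference was 0.15 (adjusted p = 0.587). In early against control 1 of 9 members was called lower (0.258% of all genes were) and 0 higher (0.928%). In late against control the call went to 2 of 9 as lower (0.113% of all genes) and to 0 as higher (0.0928%). In early against late it went to 2 of 9 as higher (5.31% of all genes) and to 0 as lower (6.23%). Mymk was among the called members in each comparison, so these counts carry the same limit of its filter and floor.

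At an unadjusted p under 0.05, which 18.5% of all genes reached in early against control, 3 members were lower (9.89% of all genes) and 0 higher (8.64%). Late against control, where 17.3% of genes reached it, had 3 lower (8.44%) and 0 higher (8.82%). Early against late, where 34.2% reached it, had 1 lower (18.4%) and 3 higher (15.8%). Groups without overlap were seen for 2 members lower (13.9% of all genes) and 1 higher (9.63%) in early against control, 23.6% of all genes being without overlap. Late and control arrays, with 31% of all genes apart, were apart for 3 members lower (14.9%) and 2 higher (16%). Early and late arrays, with 32.1% of all genes apart, were apart for 1 member lower (18.3%) and 3 higher (13.7%). The median difference of the 9 members was -0.45 in early against control, -0.35 in late against control and -0.056 in early against late, beside -0.0345, 0.00951 and -0.0326 for all genes.

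**Figure D1:**
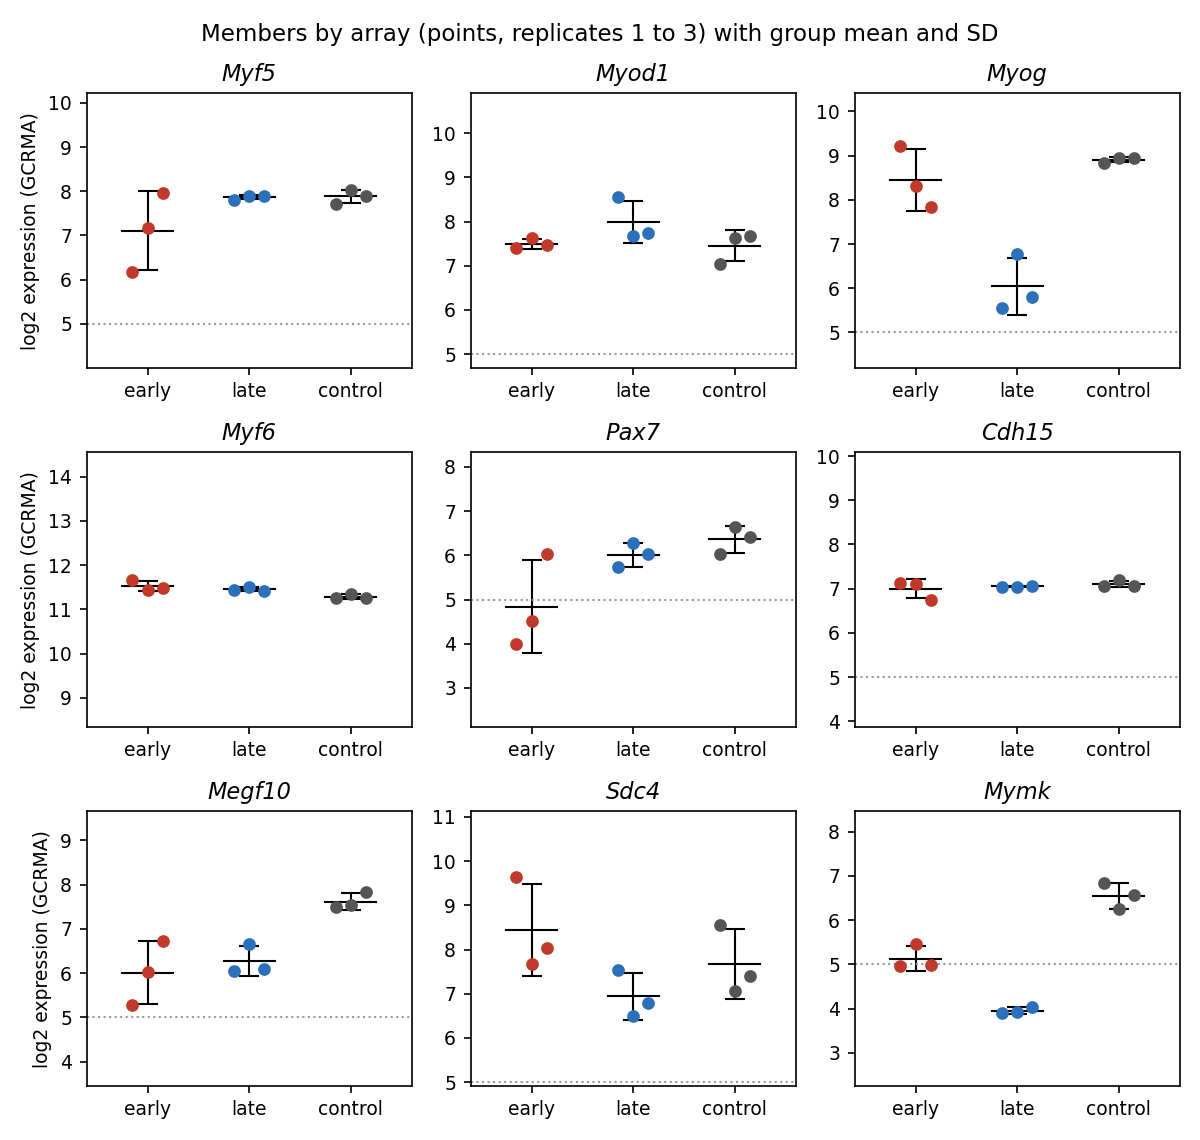
Log2 expression (vertical axis, GCRMA) of the 9 members in each array of early, late and control muscle; points are arrays, bars the group mean and SD (n = 3), and the dotted line the filter's floor of 5. Mymk lies above the floor in the controls and at or under it in all but 1 of the 6 induced arrays (early 2, 5.45), Myog is low in late arrays only, and Pax7, Myf5 and Megf10 are spread out in early arrays.

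Promoters of 2 members are shown because Myog carried the largest fall among the members in late muscle while Cdh15 had nearly the same level in all 3 groups. RefSeq promoters (build GRCm38.p6, from 250 bases before to 50 after the gene start) were taken for 5 of the 9 members. Capitals mark E-boxes (CANNTG, a palindrome, so both strands are covered), the sites that bHLH factors such as Myod1 and Myog can bind, and in Myog also 1 MEF2 motif, searched with its last base free on both strands. The Myog window lies at chr1:134289754-134290053 and the Cdh15 window at chr8:122848124-122848423, both on the plus strand.
Myog: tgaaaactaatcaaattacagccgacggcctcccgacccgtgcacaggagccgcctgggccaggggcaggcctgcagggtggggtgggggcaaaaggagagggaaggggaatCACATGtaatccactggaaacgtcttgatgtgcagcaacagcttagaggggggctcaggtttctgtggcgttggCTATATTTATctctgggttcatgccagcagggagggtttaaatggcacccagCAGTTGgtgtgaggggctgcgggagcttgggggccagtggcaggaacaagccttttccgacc
Cdh15: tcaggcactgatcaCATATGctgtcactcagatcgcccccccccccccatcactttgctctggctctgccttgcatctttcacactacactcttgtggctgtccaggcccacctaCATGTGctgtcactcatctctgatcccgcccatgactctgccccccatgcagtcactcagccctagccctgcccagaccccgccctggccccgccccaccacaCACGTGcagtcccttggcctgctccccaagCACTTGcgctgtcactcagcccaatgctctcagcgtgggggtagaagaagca
The Myog window held 2 E-boxes, CACATG and CAGTTG, the first base of the second lying 12 bases before the start, and its MEF2 motif was CTATATTTAT. The Cdh15 window held 4 E-boxes and no MEF2 motif. Over 32851 promoters of 300 bases, 72.3% held an E-box, 39.6% held at least as many as Myog, 6.49% held at least as many as Cdh15, and 7.66% held the MEF2 motif. The motif's free last base was chosen after the Myog promoter was seen, so 7.66% does not measure how unusual its match is. These matches describe letters in a window and are no evidence of binding.

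Myog, or myogenin, switches on the terminal differentiation genes of muscle. It read 9.21, 8.31 and 7.84 in early 1, 2 and 3, 5.55, 6.78 and 5.80 in late 1, 2 and 3, and 8.84, 8.94 and 8.94 in the controls. The 3 late arrays lay below every early and control array, while the early arrays lay on both sides of the controls. Myog fell 7.28-fold in late against control muscle (log2 difference -2.86 ± 0.39 SE, 95% interval -3.74 to -1.99, limma adjusted p = 0.0359). In early against control it differed by -0.45 ± 0.39 (interval -1.33 to 0.42, adjusted p = 0.546), and by -0.14 without early 3 (adjusted p = 0.823). Early muscle was 5.32-fold above late muscle (2.41 ± 0.39, adjusted p = 0.0131), and the difference of early from late was 2.72 without early 3 (adjusted p = 0.00232).

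The late fall of Myog kept its direction in all 9 fits that left out 1 array, but lost its call in 6 of them. Its adjusted p was 0.195, 0.238 and 0.122 without control 1, 2 or 3, 0.0895 and 0.0705 without late 1 or late 3, and 0.0852 without early 2, and in these 6 fits the difference lay between -2.90 and -2.62. With no filter on low values it was 0.0669. Of the fibroblast and matrix markers, 0 of the 7 tested (8 listed) were called in late against control. At an unadjusted p under 0.05, 4 were lower (8.44% of all genes). Their mean log2 level was 12.08 to 12.62 in late against 12.82 to 13.16 in control arrays (12.56 to 13.23 in early arrays). Their part in the Myog difference was not tested.

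Mymk encodes myomaker, a membrane protein that myoblasts need in order to fuse. It read 4.96, 5.45 and 4.98 in early 1, 2 and 3, 3.90, 3.92 and 4.04 in late 1, 2 and 3, and 6.83, 6.26 and 6.56 in the controls. The 3 groups did not overlap: controls were highest, early arrays lower, and late arrays lowest. Mymk fell 2.67-fold in early against control muscle (-1.42 ± 0.19, interval -1.85 to -0.98, adjusted p = 0.0139) and 6.04-fold in late against control muscle (-2.60 ± 0.19, interval -3.03 to -2.16, adjusted p = 0.0016). As the late values lie under the floor, the size of the late fall is uncertain.

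Mymk passed the filter through the controls and 1 early array, and its late values lay under the floor of 5. With values below 5 set to 5, the late difference was -1.55 (adjusted p = 0.0415) and the early one -1.40 (adjusted p = 0.0124). Early was above late muscle by 1.18 ± 0.19 (adjusted p = 0.0137), but not with that floor, so the order of early and late rests on values under the floor. The early fall had an adjusted p of 0.0564, 0.051 and 0.0892 without control 1, 2 or 3 and of 0.00518 without early 3. Without late 2 the difference between early and late had an adjusted p of 0.0569.

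Mymx, the small partner protein of myomaker in fusion, was looked at beside it, outside the rule for named genes. It did not pass the filter and was not tested. Mymx read 4.66, 4.74 and 4.18 in early, 4.16, 4.20 and 4.21 in late and 4.92, 5.60 and 4.83 in control arrays. Every early and late array lay below every control array, on values mostly under the floor.

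The other transcription factors of the family, Myf5, Myod1 and Myf6, were not called in any comparison of the main fits. Myf5, which acts with Myod1 to specify muscle cells, read 6.18, 7.18 and 7.96 in early, 7.81, 7.90 and 7.90 in late and 7.72, 8.03 and 7.89 in control arrays. Late and control arrays were alike, and early 1 and early 2 lay below all of them while early 3 did not. The early difference was -0.77 ± 0.37 (adjusted p = 0.295), and -1.20 without early 3 (adjusted p = 0.0198). In late muscle it was -0.01 ± 0.37 (interval -0.85 to 0.82, adjusted p = 0.991). Myf5 differed by -0.76 ± 0.37 in early against late (limma adjusted p = 0.176). Without early 3 that difference was -1.19 and was called.

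Myod1, the founding member of the family, read 7.40, 7.62 and 7.46 in early, 8.55, 7.68 and 7.75 in late and 7.04, 7.62 and 7.68 in control arrays. Late 1 was highest, and the other late arrays were level with the upper controls. The late difference was 0.54 ± 0.26 (interval -0.05 to 1.13, adjusted p = 0.321) and the early one 0.04 ± 0.26 (interval -0.55 to 0.63, adjusted p = 0.94). Its second probe set read 2.13 to 2.26 in all arrays and did not pass the filter.

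Myf6, the family member of mature fibres, read 11.66, 11.44 and 11.48 in early, 11.44, 11.50 and 11.42 in late and 11.25, 11.36 and 11.26 in control arrays. All 6 induced arrays lay above the 3 controls, by little. The differences were 0.24 ± 0.12 in early (interval -0.03 to 0.52, adjusted p = 0.311) and 0.17 ± 0.12 in late muscle (interval -0.11 to 0.44, adjusted p = 0.508).

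**Figure D2:**
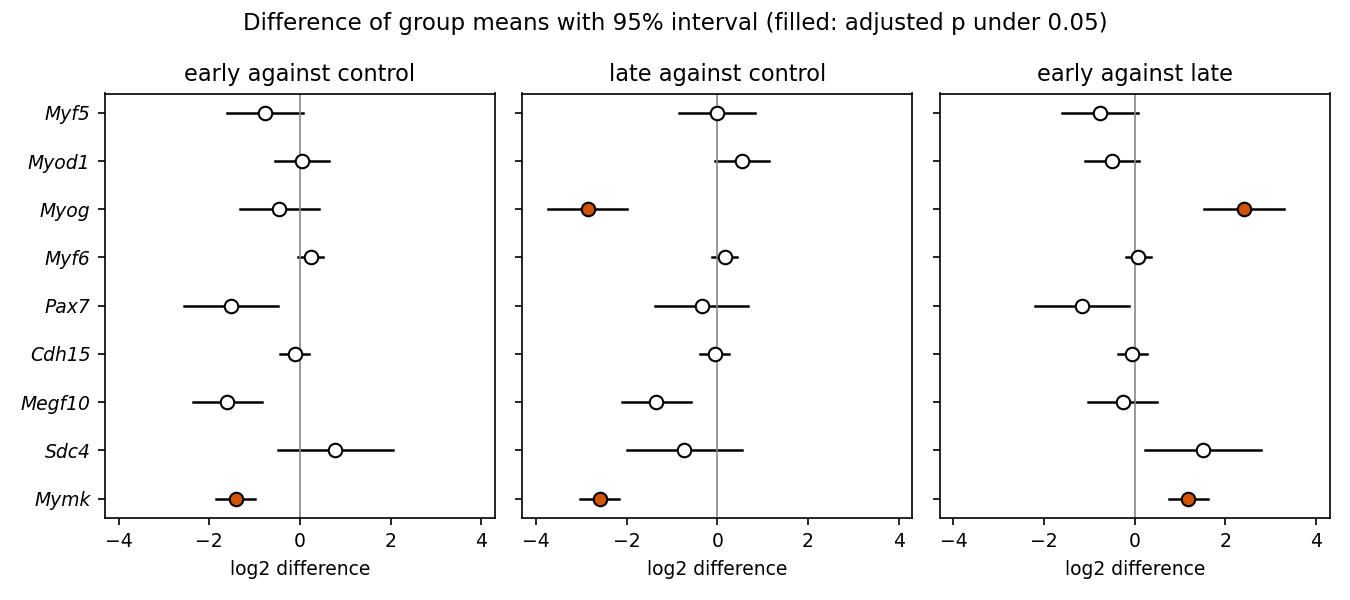
Log2 difference of group means (horizontal axis) with its 95% interval for the 9 members in early against control, late against control and early against late; filled points passed at an adjusted p under 0.05. Mymk passed in all 3 comparisons and Myog in late against control and early against late, while the intervals of Cdh15 and Myf6 stayed within 0.52 of 0.

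Of the satellite cell genes, 0 of 4 were called in any comparison by limma, but Megf10 and Pax7 had unadjusted p under 0.05 in early against control. Megf10, a surface receptor of satellite cells, read 5.28, 6.03 and 6.72 in early, 6.05, 6.67 and 6.10 in late and 7.49, 7.55 and 7.83 in control arrays. Every induced array lay below every control array. The difference was -1.61 ± 0.34 in early (3.05-fold lower, interval -2.37 to -0.85, adjusted p = 0.0676) and -1.35 ± 0.34 in late muscle (2.54-fold lower, interval -2.11 to -0.59, adjusted p = 0.126). Without early 3 the early difference was -1.96 (adjusted p = 0.00315). Early and late muscle differed by -0.26 ± 0.34 (interval -1.02 to 0.50, adjusted p = 0.605).

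Pax7, the factor that maintains satellite cells, read 3.99, 4.51 and 6.03 in early, 5.73, 6.28 and 6.02 in late and 6.03, 6.64 and 6.42 in control arrays. Early 1 and early 2 were low, under the floor of 5, and early 3 equalled the lowest control. The early difference was -1.52 ± 0.45 (2.86-fold lower, interval -2.55 to -0.49, adjusted p = 0.158). It was -2.11 without early 3 (adjusted p = 0.00169) and -1.02 with the floor at 5 (adjusted p = 0.149). In late muscle Pax7 differed by -0.35 ± 0.45 (interval -1.38 to 0.68, adjusted p = 0.727). Early and late muscle differed by -1.17 ± 0.45 (adjusted p = 0.112), and by -1.76 without early 3 (adjusted p = 0.00253). A second Pax7 probe set, under the floor in all arrays, read 2.52, 3.37 and 3.40 in early, 3.38, 3.41 and 3.42 in late and 3.54, 3.75 and 3.41 in control arrays, with early 1 again lowest.

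Cdh15, or M-cadherin, joins satellite cells to the fibre. It read 7.13, 7.11 and 6.75 in early, 7.04, 7.05 and 7.07 in late and 7.07, 7.19 and 7.07 in control arrays. The groups overlapped in early against control, and early 3 was the lowest array. The differences were -0.11 ± 0.14 in early (interval -0.43 to 0.20, adjusted p = 0.681) and -0.06 ± 0.14 in late muscle (interval -0.37 to 0.26, adjusted p = 0.868).

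Sdc4, a heparan sulfate proteoglycan of satellite cells that other cell types also make, had its highest mean in early muscle. It read 9.64, 7.67 and 8.03 in early, 7.54, 6.50 and 6.79 in late and 8.56, 7.05 and 7.39 in control arrays. Early 1 was highest, and every early array lay above every late array. Early against control differed by 0.78 ± 0.56 (adjusted p = 0.472) and late against control by -0.72 ± 0.56 (adjusted p = 0.538). Early against late differed by 1.50 ± 0.56 (2.84-fold, interval 0.23 to 2.78, adjusted p = 0.101). With the replicate number as a block the limma adjusted p was 0.0195, but no label says that the numbers pair arrays. A second Sdc4 probe set read 7.79, 6.16 and 5.33 in early, 4.15, 4.43 and 4.78 in late and 5.40, 5.23 and 5.39 in control arrays; it too was highest in early 1, and there all late arrays were below all controls.

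Within the early group Pax7, Myf5 and Megf10 had 1 order: lowest in early 1, between in early 2 and highest in early 3. Genes of other lists had that order too, such as Neo1 (9.42, 9.82 and 10.29) and Carm1 (8.93, 9.13 and 9.79). The share of all genes with this order was not counted. Sdc4 was highest in early 1, and at its tested probe set replicate 1 was also the highest of the late and of the control arrays. The macrophage markers (7 of 9 tested, 0 called, Itgam below the filter) had a mean log2 level of 9.67, 9.39 and 8.05 in early 1, 2 and 3, against 8.08 to 8.70 in late and 8.24 to 8.78 in control arrays. Cd68, a lysosomal protein of macrophages named here after its values were seen, read 12.06, 11.17 and 6.23 in early 1, 2 and 3, against 7.08 to 7.30 in late and 6.74 to 7.90 in control arrays. In early against control 5 of the 7 macrophage markers had positive differences (45.9% of all genes). The other 2 were negative, Mrc1 (-0.23) and Cd163 (-0.19). The list median was 0.15 beside -0.0345 for all genes. The part of macrophage RNA in the levels of the satellite cell genes was not tested. Of the nerve and Schwann cell markers 5 of 7 were tested. In early against control 0 were called and 3 were lower at an unadjusted p under 0.05 (9.89% of all genes). In early against late 1 was called lower, Mbp (6.23% of all genes). Their mean log2 level was 7.19 to 7.48 in early, 7.78 to 7.82 in late and 7.88 to 8.23 in control arrays, and their part was not tested either. Of the adipocyte markers (3 of 6 tested, 0 called, Lep below the filter), 3 of 3 were lower without overlap in early against control (13.9% of all genes). Their median difference was -1.47 beside -0.0345 for all genes. Their mean log2 level was 8.53 to 9.23 in early, 8.61 to 10.49 in late and 9.74 to 10.94 in control arrays, and their part was not tested. The mean log2 level of the fibre markers was 15.30, 15.30 and 15.13 in early 1, 2 and 3. Single fibre markers varied more and in both directions. The myosin Myh2 read 14.76, 14.50 and 13.20 in these arrays, and the myosin Myh4 15.43, 15.61 and 15.76.

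**Figure D3:**
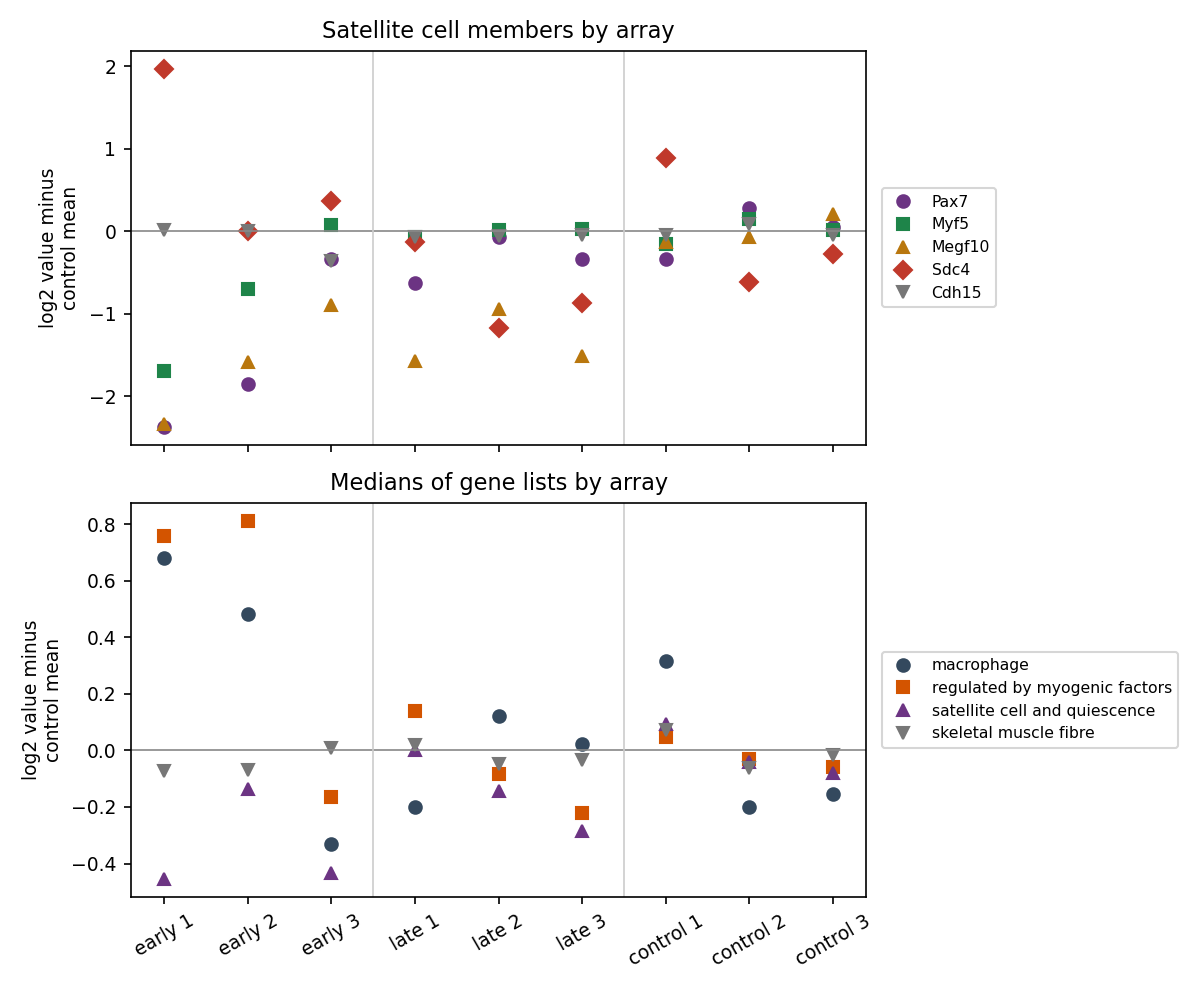
Log2 value minus the control mean (vertical axis) in each of the 9 arrays, above for 5 members and below for the medians of 4 gene lists. Pax7, Myf5 and Megf10 were lowest in early 1, where Sdc4 and the macrophage median were highest, and Cdh15 was at most 0.36 below the control mean in any array.

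Other satellite cell genes, from a list of 23 with 17 tested, had 0 members called in early against control by limma. At an unadjusted p under 0.05, 5 of 17 were lower (9.89% of all genes) and 0 higher (8.64%). Positive values were found for 2 of 17 (45.9% of all genes), with a list median of -0.32 beside -0.0345 for all genes. In early against late 4 of 17 were called lower (6.23% of all genes) and 0 higher (5.31%), and the median was -0.25 beside -0.0326 for all genes. Among marker lists of other cells, adipocyte had a median of -0.87 there, nerve and Schwann -0.50, endothelial -0.44 and smooth muscle and pericyte -0.44. Fibre markers had -0.064, proliferation markers 0.030, fibroblast and matrix markers 0.34 and macrophage markers 0.36. The part of such cells in the satellite cell list was not tested. Met, the receptor for hepatocyte growth factor that activates satellite cells, read 7.32, 7.20 and 7.67 in early against 9.01, 8.68 and 8.19 in late and 7.96 to 8.29 in control arrays. It was 2.35-fold lower in early than in late muscle (-1.23 ± 0.23, adjusted p = 0.0195).

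The others called were Fgfr1, a fibroblast growth factor receptor (-0.98 ± 0.22, adjusted p = 0.0314), Bmp4, a secreted growth factor (-1.35 ± 0.33, adjusted p = 0.0383), and Vcam1, an adhesion molecule (-0.97 ± 0.25, adjusted p = 0.0422). For each of these 4 the early arrays lay below every late and every control array. The calls did not hold when single arrays were left out. Met had an adjusted p of 0.0602, 0.0618 and 0.0716 without early 1, early 2 or late 2. For Fgfr1, Bmp4 and Vcam1 the call was lost without early 1, early 2, late 1, late 2 or any of the 3 controls, with an adjusted p of up to 0.0951, 0.121 and 0.127. With the replicate block Vcam1 had an adjusted p of 0.0624. In late against control 0 of 17 were called, with 1 higher (8.82% of all genes) and 0 lower (8.44%) at an unadjusted p under 0.05 and a median of -0.096 beside 0.00951 for all genes. Pax3, Calcr, Hey1, Dll1, Chrdl2 and Sox8 did not pass the filter.

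Cofactors of the myogenic factors (19 of 20 tested) had 0 members called in all 3 comparisons by limma. At an unadjusted p under 0.05, 1 was higher (8.64% of all genes) and 5 were lower (9.89%) in early against control. In late against control 1 was higher (8.82%) and 1 lower (8.44%), and in early against late 2 were higher (15.8%) and 6 lower (18.4%). The medians were -0.19, 0.14 and -0.32 in that order of comparisons, beside -0.0345, 0.00951 and -0.0326 for all genes. Cdkn1c, an inhibitor of the cell cycle, read 10.52, 10.35 and 10.29 in early, 10.20, 9.20 and 9.22 in late and 11.47, 11.18 and 11.10 in control arrays. The 3 groups did not overlap, and the late difference was -1.71 ± 0.26 (adjusted p = 0.0519). Mef2a, a partner factor of Myod1 and Myog, differed by 0.34 ± 0.14 in late muscle (adjusted p = 0.27). Smarcd3, a chromatin remodelling subunit, differed by -0.91 ± 0.32 in early muscle (adjusted p = 0.195), and Carm1, a methyltransferase, by -0.63 ± 0.22 (adjusted p = 0.195).

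Of 13 inhibitors of bHLH factors 8 were tested, and 0 were called in the 3 comparisons by limma. At an unadjusted p under 0.05, 0 were higher (8.64% of all genes) and 2 lower (9.89%) in early against control, and 1 was higher (8.82%) and 1 lower (8.44%) in late against control. In early against late 0 were higher (15.8%) and 1 lower (18.4%). Sim2, a bHLH repressor, had the smallest p of the list in late against control and read 6.03, 6.22 and 6.08 in early, 7.65, 6.96 and 6.11 in late and 5.27, 5.97 and 6.13 in control arrays. Late 1 and late 2 were high and late 3 lay among the controls, and the late difference was 1.11 ± 0.37 (adjusted p = 0.195). Twist1, which blocks Myod1, differed by -0.92 ± 0.35 in early (adjusted p = 0.224) and by -0.98 ± 0.35 in late muscle (adjusted p = 0.226). Id1, which sequesters the partners of the myogenic factors, differed by 0.69 ± 0.57 in late muscle (adjusted p = 0.564). The list medians were -0.11 in early and 0.18 in late against control, and -0.088 in early against late, beside -0.0345, 0.00951 and -0.0326 for all genes.

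Fusion and adhesion genes beside Mymk (25 of 36 listed were tested) had 0 called in early against control, with 1 higher (8.64% of all genes) and 4 lower (9.89%) at an unadjusted p under 0.05, and a median of -0.22 beside -0.0345 for all genes. Cdon, a coreceptor that promotes differentiation, differed by -0.85 ± 0.25 in early muscle (adjusted p = 0.15), and Neo1, neogenin, by -0.75 ± 0.22 (adjusted p = 0.158). In late against control 0 were called, 6 were higher (8.82% of all genes) and 2 lower (8.44%) at an unadjusted p under 0.05, and the median was 0.11 beside 0.00951 for all genes. Ehd2, a membrane trafficking protein, read 7.24, 7.20 and 7.26 in late against 9.22, 8.90 and 8.47 in control arrays, and 8.70, 7.94 and 8.83 in early ones. Late arrays were low and close together, and the late difference was -1.63 ± 0.26 (adjusted p = 0.0573). Cav3, the caveolin of muscle, differed by -0.90 ± 0.23 in late muscle (adjusted p = 0.13), and Arhgap26, a GTPase regulator, by 1.64 ± 0.59 (adjusted p = 0.226), with late 1 at 8.86 and the other late arrays at 6.70 and 6.10.

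In early against late 3 of the 25 fusion genes were called, a share close to the 11.5% of all genes, 1 higher (5.31% of all genes) and 2 lower (6.23%). Ehd2 was higher (1.26 ± 0.26, adjusted p = 0.0251), and Neo1 (-0.98 ± 0.22, adjusted p = 0.0328) and Crk, an adaptor protein (-0.62 ± 0.16, adjusted p = 0.0455), were lower in early muscle. Ehd2 lost its call without early 1, late 1, late 2 or control 2 (adjusted p up to 0.0823). Neo1 and Crk lost theirs without any 1 array other than early 3, with an adjusted p of up to 0.087 for Neo1 and 0.127 for Crk. With the replicate block the adjusted p of Crk was 0.0592. The list median was -0.27 beside -0.0326 for all genes.

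Genes that the myogenic factors regulate, many of them of the acetylcholine receptor or of immature fibres, had 15 of 18 tested and 0 called. In early against control 2 were higher (8.64% of all genes) and 0 lower (9.89%) at an unadjusted p under 0.05. The median was 0.44 beside -0.0345 for all genes, and 11 of 15 had positive values (45.9% of all genes). Myl4, an embryonic myosin light chain, read 9.28, 9.51 and 5.68 in early, 6.82, 5.93 and 5.51 in late and 5.80, 5.68 and 6.07 in control arrays. Early 1 and early 2 were high and early 3 was not, and the difference was 2.31 ± 0.88 (adjusted p = 0.224). Rapsn, which clusters acetylcholine receptors, differed by 0.59 ± 0.22 (adjusted p = 0.216), and Chrna1, a receptor subunit, by 1.27 ± 0.64 (adjusted p = 0.314).

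Late muscle had a median of -0.06 for the same list beside 0.00951 for all genes, with 0 higher (8.82% of all genes) and 1 lower (8.44%) at an unadjusted p under 0.05, which was Chrnb1 (-0.64 ± 0.26, adjusted p = 0.269). In early against late 4 were higher (15.8% of all genes) and 0 lower (18.4%) at that p, with a median of 0.33 beside -0.0326 for all genes. The mean log2 level of the 15 genes was 11.59, 11.65 and 10.08 in early 1, 2 and 3, 10.14 to 11.04 in late and 10.49 to 10.61 in control arrays. Chrnd, Chrng and Runx1 did not pass the filter and were not tested. Outside the rule for named genes, Chrnd read 5.23, 5.05 and 2.64 and Runx1 6.35, 6.44 and 3.72 in early 1, 2 and 3. Late and control arrays read 2.57 to 2.66 for Chrnd and 3.81 to 4.88 for Runx1. Chrng read 2.35 to 2.78 in all arrays.

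**Figure D4:**
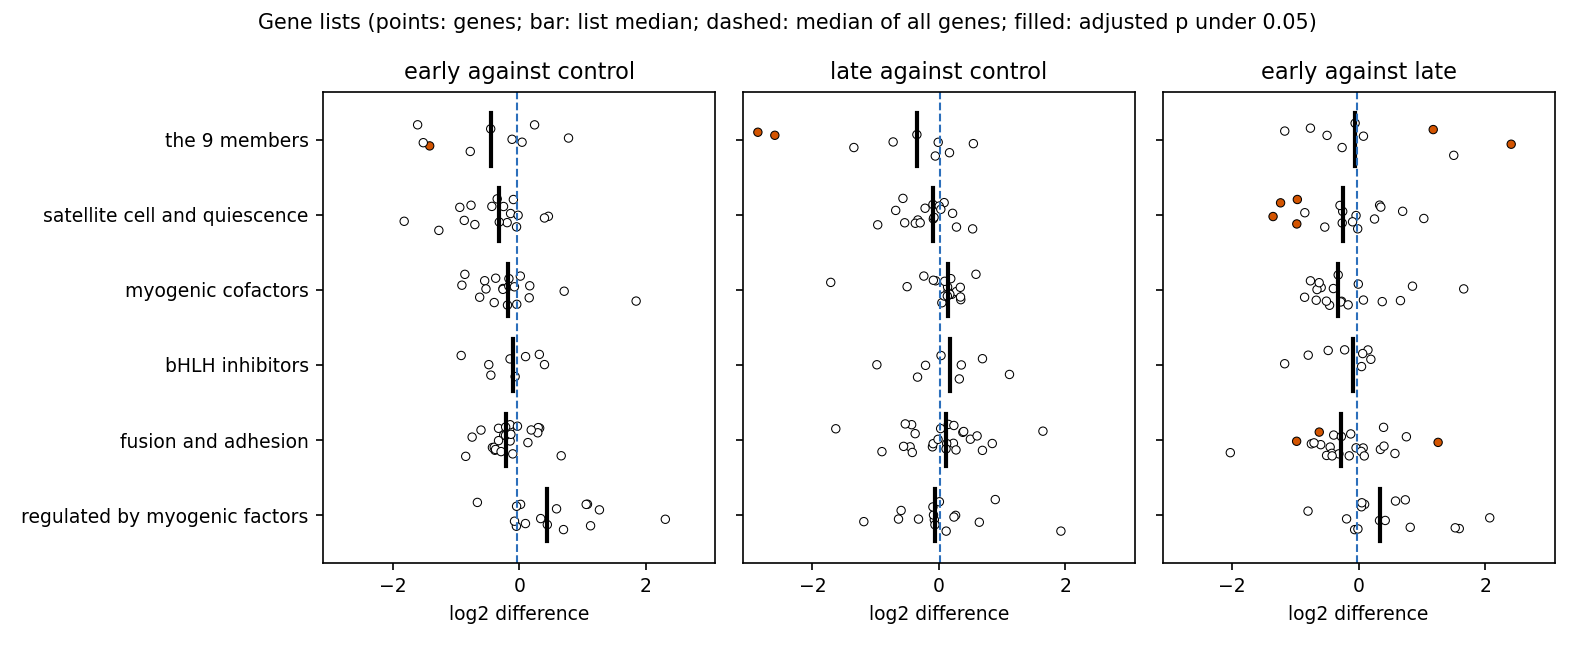
Log2 difference (horizontal axis) of every tested gene in the 9 members and 5 gene lists for the 3 comparisons; bars are list medians, the dashed line is the median of all 9697 genes, and filled points passed at an adjusted p under 0.05. Calls were made among the members in each comparison and among the satellite cell and fusion lists in early against late only.

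Genes with the pattern most like that of Myog and Mymk were named by Pearson r over the 9 arrays, which share their groups, so that r mainly reflects the group means. For Myog they were Nelfcd (r = 0.96), Xpnpep3 (0.95), E2f2 (0.95), Nt5c3b (0.95) and Mrps23 (0.95). E2f2, a cell cycle transcription factor, averaged 7.14 in early, 5.65 in late and 7.11 in control muscle. For Mymk they were Cthrc1 (r = 0.95), Ift27 (0.94), Col16a1 (0.94), Slc35b2 (0.94) and Tmem101 (0.93). Cthrc1, a secreted matrix protein, averaged 7.16 in early, 5.52 in late and 8.18 in control muscle. Of the proliferation markers (4 of 7 tested, 0 called), 3 of 4 were lower in early against control (9.89% of all genes) and 2 of 4 in late against control (8.44%) at an unadjusted p under 0.05. They had a mean log2 level of 6.73 to 7.08 in early, 6.35 to 7.79 in late and 7.48 to 7.98 in control arrays. Their part in the Myog and Mymk differences was not tested.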

How the data were processed

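Per the labels' protocols, RNA of 9 quadriceps muscles was primed with oligo(dT), biotin-labelled and read on Affymetrix arrays. Per the submitters' processing notes, the authors made the deposited log2 values with GCRMA (version not given in the sources used here). It gives arrays like distributions, which would hide any change shared by all genes, and draws dim probe sets together. Array medians were 3.41 to 3.45. All 9 value columns were used, and the number of arrays limits the precision.

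Of 45101 probe sets, 34945 named 1 gene, 932 several and 9224 none or were controls. Probe sets naming 1 gene with a log2 value above 5 in at least 3 arrays were kept (16048), and per gene the one with the highest mean (9697). A model of 3 group means was fitted to all arrays with limma 3.58.1 in R 4.3.3 (lmFit, eBayes), with Benjamini-Hochberg adjustment over all genes tested, and checked on simulated data. Errors are SE of differences; intervals are 95%. Labels do not say what replicates share, so p-values cover only the spread among these arrays. The members and lists were chosen with earlier results of these data known. Named were the members, H2-K1, list members called or among the 4 smallest p of a comparison, and the 5 genes most like each called member. Alternatives changed the filter, probe sets, groups fitted, scaling, block, weights and prior, or left out 1 array.

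Deviations of same-numbered early and late arrays were correlated (0.168, 0.201 and 0.16, all over 0.1), although no label says that the numbers pair them. The main fits were unpaired, and the numbers entered as a block in an alternative only. Arrays of unlike number were not compared, and the block fit also covered the controls. For early and control they were 0.35, 0.11 and -0.0391, for late and control 0.0847, -0.165 and -0.11. The MEF2 motif's free last base was chosen after the promoter was seen.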

Additional observations from a re-analysis of the deposited data

Results flagged for a closer look

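Members and list genes were picked out where the difference between early and late induction itself passed the test. These differences, early minus late on the log2 scale with limma's adjusted p, were 2.41 for Myog (adjusted p = 0.0131) and 1.18 for Mymk (adjusted p = 0.0137). Myog was higher in 3 of 3 early arrays than in every late array, and so was Mymk. The Mymk difference was 0.15 with values below 5 set to 5 (adjusted p = 0.587). In the other lists the differences were -1.23 for Met, -0.98 for Fgfr1, -1.35 for Bmp4, -0.97 for Vcam1, 1.26 for Ehd2, -0.98 for Neo1 and -0.62 for Crk. Among markers of other cell types they were -0.80 for Mbp, a myelin protein (adjusted p = 0.0498), and -1.28 for Myh11, smooth muscle myosin (adjusted p = 0.00578). Myh11 kept its call in all 20 alternatives, while Mbp lost it in 15. Both groups differ in age at induction and at death, so neither can be told apart from the other in these differences. Single arrays within a group of 3 were not tested as outliers. For members and called list genes, effects of leaving 1 array out are given with the results.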

How the results depend on the processing

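Of 540 alternative values for the 9 members in the 3 comparisons, 503 kept direction and side of the threshold, 17 lost the call, 12 gained it and 8 changed sign; the cause was not tested. Every sign change was of a value that was not called. Leaving out 1 array put Myod1 in early against control between -0.16 and 0.16 (-0.02 without early 2), Cdh15 between -0.18 and 0.00996 there and between -0.12 and 0.068 in early against late (0.032 with array weights), Myf5 in late against control between -0.092 and 0.064 (0.02 without late 1) and Megf10 in early against late between -0.62 and 0.10. Mymk in late against control kept its call in all 20 alternatives (adjusted p 0.000175 to 0.0415). Leaving out 1 array gave 6 to 1756 genes in early against control, 5 to 59 in late against control and 143 to 2959 in early against late, and 0 to 4, 1 to 2 and 1 to 4 members. With no filter the genes called were 56 in early against control and 584 in early against late, and 1 member in late against control. Fitting only the 2 groups compared gave 61, 12 and 38 genes in early against control, late against control and early against late, and 0 members in early against control and in early against late. With array weights, whose estimate did not reach its tolerance, it gave 3335, 1037 and 3534 genes, 4 members in early against control and 4 in early against late. A filter on the mean gave 11 genes in late against control, and leaving out probe sets that can read several transcripts gave 12. Testing every probe set gave 1803 genes in early against late. With values below 5 set to 5, 1 member was called in early against late. With the replicate block, 62 genes were called in early against control and 5 in late against control. The check linked the numbers of early and late arrays, but not those of the controls throughout. With the block 0 members were called in early against control, where Mymk lost its call (adjusted p = 0.0508). In late against control 1 member, Mymk, was called, and Myog lost its call (adjusted p = 0.0935). The block changed no other member's call than those of Sdc4, Mymk and Myog. The floor of the arrays limits Mymk, Mymx and Pax7.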
